A study of Mus musculus with 9 samples.

Results

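The catecholamine synthesis and transport genes were followed across 3 pools of mouse motor neurons, and they are represented by 16 probe sets among the 45037 non-control probe sets of the array. The members are Th, Ddc, Dbh, Slc18a2, Slc6a2, Slc6a3, Maoa, Maob and Drd2, 9 of 18193 measured genes, taken by gene symbol as every probe set annotated to that symbol alone. The set was chosen on the intensities of the oculomotor arrays, where 3 of the genes, Th, Ddc and Slc6a2, had been seen to be brighter, so their differences between the oculomotor pool and the spinal pools are given below as a description without a test. Only the difference between the 2 spinal pools, which did not enter that choice, was tested for the members.

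Motor neurons were cut by laser from cresyl violet stained sections, 12 µm thick, of untreated wild-type C57BL/6J male mice at postnatal day 7. Each of 3 animals gave about 200 neurons per pool. From these, 1.5 ng of RNA or more went into whole-transcript amplification and onto an Affymetrix mouse expression array. The pools were the oculomotor nucleus of the midbrain (OMN), whose neurons move the eye, the dorsolateral nucleus of lumbar segment 6 (DL), and the motor neurons of lumbar segment 5 (L5), with 3 arrays each. A captured profile can also hold tissue around the cut cell bodies, and in such bulk samples fewer cells of a type and less RNA per cell cannot be told apart.

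Catecholamines are made from the amino acid tyrosine. Tyrosine hydroxylase turns it into DOPA, aromatic amino acid decarboxylase turns DOPA into dopamine, and dopamine beta-hydroxylase turns dopamine into noradrenaline. A vesicular transporter packs these amines for release, plasma membrane transporters take them back up, and monoamine oxidases break them down. In the midbrain the dopamine neurons lie ventral to the oculomotor nucleus, while the spinal cord receives its catecholamines mainly through fibres from the brain.

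Array quality and cell identity were checked first. Between 67% and 71.5% of genes exceeded the noise level of 18.3 on each array, where the noise level is the highest value of 27 unspiked bacterial control probe sets. The Gapdh ratio, which divides the signal at the 3' end of that transcript by the signal at its 5' end and is read as a sign of RNA integrity, was 3.27, 2.44 and 3.75 on DL arrays 1 to 3, against 2.33 to 2.67 on the OMN arrays and 2.45 to 2.53 on the L5 arrays, so that DL arrays 1 and 3 stood apart. The median SD of bright genes was 0.171 log2 units in OMN, 0.295 in DL and 0.204 in L5. Slc5a7, the choline transporter of cholinergic neurons, was bright on all 9 arrays, at 3942 to 4192 in OMN, 2864 to 3475 in DL and 3415 to 4979 in L5. Isl1, a transcription factor of motor neurons, read 2084 to 2176 in OMN, 2299 to 3128 in DL and 494.7 to 749.5 in L5. Chat, the acetylcholine synthesis enzyme, was represented by 1 probe set that lay near the noise level throughout, at 20.5 to 24.5 in OMN, 8.4 to 21.8 in DL and 1.2 to 12.8 in L5.

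Not all 11 measured motor neuron markers were alike in the 3 pools. For OMN minus L5 limma called 1 higher (Isl1) and 2 lower (Mnx1 and Prph), and for OMN minus DL 1 higher (Lhx4) and 2 lower (Mnx1 and Isl2), each time 27.3% of the list, where 2.17% and 3.02% of all genes were called. Mnx1, a homeodomain factor of spinal motor neurons, read 0.9, 1.4 and 3 in OMN, against 89.7, 122.5 and 71.3 in DL and 155.6, 147 and 80.9 in L5, at least 5.04-fold lower in OMN than in DL and at least 6.71-fold lower than in L5 (limma adjusted p = 0.00295 and 0.00251). Isl2, a relative of Isl1, read 4.6 to 20.7 in OMN, 87.2 to 100.8 in DL and 53.1 to 145.3 in L5, and its call against DL was made in 8 of 20 alternatives. Prph, the intermediate filament peripherin, read 4571 to 5167 in OMN, 7530 to 9228 in DL and 10114 to 10376 in L5, and its call against L5 was made in 7 of 20. Lhx4, a LIM homeodomain factor, read 1369 to 1610 in OMN, 59.6 to 214.2 in DL and 291.3 to 382.7 in L5, and its call against DL was made in all 20.

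The windows upstream of 3 members are printed because Th and Ddc were brighter together in OMN and because Slc18a2 was bright in every pool. Each runs from 250 bases before to 30 after an annotated transcription start, 5' to 3' on the gene's strand, from RefSeq on GRCm38.p6. RefSeq windows were matched for 7 of the 9 members, as 8 windows in all, since Ddc has 2 starts. Capitals mark the motifs searched on both strands, which were the cAMP response element TGACGTCA, the AP-1 site TGANTCA, the Nr4a element AAAGGTCA, the homeodomain core TAATTA and the GC box GGGCGG.
Th, chr7:142899966-142900245, minus strand: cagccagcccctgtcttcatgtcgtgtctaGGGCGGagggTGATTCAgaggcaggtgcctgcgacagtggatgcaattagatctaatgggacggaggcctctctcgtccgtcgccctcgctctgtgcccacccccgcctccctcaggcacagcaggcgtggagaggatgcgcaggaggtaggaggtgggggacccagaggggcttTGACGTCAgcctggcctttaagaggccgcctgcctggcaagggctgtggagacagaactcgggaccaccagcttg
Ddc window 1, chr11:11890379-11890658, minus strand: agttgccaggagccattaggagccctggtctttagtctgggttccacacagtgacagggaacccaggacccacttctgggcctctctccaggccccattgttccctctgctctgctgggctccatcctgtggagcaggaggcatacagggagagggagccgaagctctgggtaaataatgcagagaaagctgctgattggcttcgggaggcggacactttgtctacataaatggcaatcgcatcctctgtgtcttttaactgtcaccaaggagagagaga
Ddc window 2, chr11:11898115-11898394, minus strand: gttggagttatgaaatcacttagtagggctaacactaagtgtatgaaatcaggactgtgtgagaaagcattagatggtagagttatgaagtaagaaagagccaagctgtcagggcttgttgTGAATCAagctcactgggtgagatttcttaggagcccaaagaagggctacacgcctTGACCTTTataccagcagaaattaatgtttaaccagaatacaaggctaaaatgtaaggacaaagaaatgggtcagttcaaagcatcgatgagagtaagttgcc
Slc18a2, chr19:59260628-59260907, plus strand: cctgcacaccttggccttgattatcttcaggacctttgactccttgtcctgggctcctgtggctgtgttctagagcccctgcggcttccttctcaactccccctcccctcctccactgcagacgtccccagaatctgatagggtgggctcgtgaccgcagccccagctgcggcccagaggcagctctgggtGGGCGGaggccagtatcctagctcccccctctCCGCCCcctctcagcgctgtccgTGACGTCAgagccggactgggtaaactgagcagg
The Th window held a cAMP response element at positions -45 to -38 relative to the start, an AP-1 match at -210 to -204 and a GC box at -220 to -215. The first Ddc window held none of the 5 motifs. The second Ddc window held an AP-1 match at -129 to -123 and an Nr4a element, read on the other strand as TGACCTTT, at -73 to -66. The Slc18a2 window held a cAMP response element across its start, from -4 to 4, and GC boxes at -59 to -54 and -27 to -22. Among all 32851 RefSeq windows of the same length, 1.74% held the cAMP response element, 7.46% the AP-1 letters, 1.45% the Nr4a element, 5.09% the homeodomain core and 34.7% the GC box. A match describes the letters of the window and no motif overlapped another in these 4 windows.

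Of the 9 members, 7 exceeded the noise level on at least 3 arrays and 3 of them (Ddc, Slc18a2 and Maoa) on all 9. Slc6a3 exceeded it on 0 arrays. The members thus ranged from a gene bright in every pool to a gene without a reading above noise, as the plot of the 9 genes by array shows. For 3 members, or 33.3%, all OMN arrays were above all spinal arrays, and these were the 3 that led to the choice. Among all genes 4.17% showed that order, and among all probe sets 4.07%, figures given only as background because the choice used that order. 0 members had all OMN arrays below all spinal arrays, against 3.78% of all genes. The median log2 difference of the members was 0.75 for OMN minus L5, where that of all genes was -0.015, and 0.24 for OMN minus DL, where that of all genes was 0.036. These medians are the values of Drd2 and Slc6a3, genes at or near noise. The medians and the count of 0 members below are likewise only background, because the choice rested on the OMN values.

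**Figure D1:**
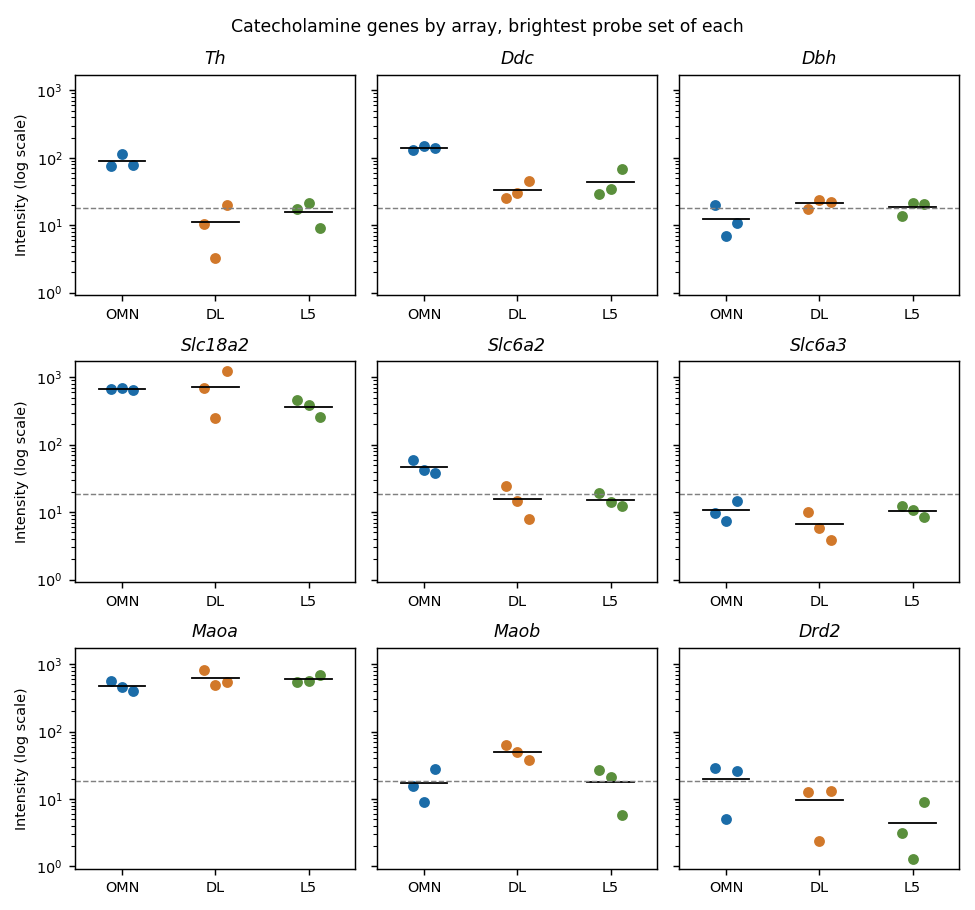
Intensity of the brightest probe set of each of the 9 genes on each array, on a log scale, with OMN left, DL in the middle and L5 right. Points are arrays, black bars are the means of 3 arrays and the dashed line is the noise level of 18.3. All OMN points of Th, Ddc and Slc6a2 lie above all spinal points, while those of Slc6a3 lie below the line in every pool.

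Th, tyrosine hydroxylase, catalyses the rate-limiting step of catecholamine synthesis and was represented by 1 probe set. It read 75.2, 113.8 and 77.6 on the OMN arrays, against 10.4, 3.3 and 19.7 on the DL arrays and 17.7, 21.2 and 9 on the L5 arrays. All OMN arrays were well above all spinal arrays, and 4 of the 6 spinal arrays lay at or below the noise level. Th averaged 88.9 ± 21.6 in OMN, 11.1 ± 8.22 in DL and 15.97 ± 6.28 in L5 (SD, n = 3 each). On the log2(intensity + 16) scale OMN exceeded L5 by 1.71 ± 0.31 (SE) and DL by 1.98 ± 0.31. Because the spinal means lay below the noise level, the linear difference is a lower bound, at least 4.54-fold over L5 and at least 4.65-fold over DL, with spinal values under 18.3 raised to it. Between the spinal pools the arrays overlapped, and DL minus L5 was -0.26 ± 0.31 with a limma adjusted p of 0.71. The DL arrays of Th, unlike those of Ddc, were in the order of their Gapdh ratio. They read 3.3 at 2.44, 10.4 at 3.27 and 19.7 at 3.75, values that lie at or near noise. With that ratio as a covariate, OMN minus DL in Th was 2.58 and DL minus L5 was -0.87 (adjusted p = 0.185). Without DL arrays 1 and 3, which leaves 1 DL array, they were 2.71 and -0.99, while OMN minus L5 stayed at 1.71 in both.

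Ddc, aromatic amino acid decarboxylase, acts after Th and also makes serotonin. It read 130.4, 149.7 and 141 on the OMN arrays, against 25, 30.6 and 45.7 on the DL arrays and 28.6, 34.6 and 67.5 on the L5 arrays. All 9 arrays exceeded the noise level and the lowest OMN array was above the highest spinal one. Ddc averaged 140.4 ± 9.67 in OMN, 33.8 ± 10.7 in DL and 43.6 ± 20.9 in L5 (SD, n = 3 each), so that the OMN mean was 4.16-fold the DL mean and 3.22-fold the L5 mean. On the log2(intensity + 16) scale the differences were 1.67 ± 0.22 over DL and 1.45 ± 0.22 over L5. DL minus L5 was -0.23 ± 0.22 (limma adjusted p = 0.644). A second Ddc probe set read at most 7.6 on any array and so carries no information on the pools.

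Dbh, dopamine beta-hydroxylase, marks noradrenaline and adrenaline cells. Its brightest probe set read 19.8, 6.9 and 10.7 on the OMN arrays, against 17.5, 23.9 and 21.8 on the DL arrays and 13.9, 21.5 and 20.6 on the L5 arrays. These values straddle the noise level in every pool and the pools overlapped. The other 2 Dbh probe sets stayed at or below 17.8 on all arrays. OMN minus L5 was -0.30 ± 0.24, OMN minus DL was -0.40 ± 0.24 and DL minus L5 was 0.10 ± 0.24 (limma adjusted p = 0.877 for the last).

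Slc18a2, the vesicular monoamine transporter VMAT2, packs dopamine, noradrenaline and serotonin into vesicles. It read 678.7, 683 and 645.5 on the OMN arrays, against 695.9, 252.1 and 1220.6 on the DL arrays and 459.3, 383.7 and 257.3 on the L5 arrays. All 9 arrays were far above the noise level, the OMN arrays were close together and the DL arrays spanned the values of the other pools. The means were 669.1 ± 20.5 in OMN, 722.9 ± 485 in DL and 366.8 ± 102 in L5 (SD, n = 3 each). OMN lay above every L5 array, with a difference of 0.88 ± 0.48 log2 units, and OMN minus DL was 0.15 ± 0.48.

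DL exceeded L5 in Slc18a2 by 0.73 ± 0.48 log2 units, which did not pass the test (limma adjusted p = 0.476). The order of the DL arrays was that of their Gapdh ratio. Slc18a2 read 252.1 at a ratio of 2.44, 695.9 at 3.27 and 1220.6 at 3.75, as the plot of both measures shows. On the brightest probe sets, Th and Drd2 also followed that order, while Ddc, Dbh, Slc6a2, Slc6a3, Maoa and Maob did not. The share of all genes in the order of the Gapdh ratio was not counted. With that ratio as a covariate, DL minus L5 in Slc18a2 was -0.31 (adjusted p = 0.714) and OMN minus DL was 1.18. Without DL arrays 1 and 3, which leaves 1 DL array, these differences were -0.54 and 1.42. The sign of the spinal difference thus rests on the 2 DL arrays with the high ratio. Without DL array 3 alone, DL minus L5 was 0.10, and without L5 array 3 it was 0.27. OMN minus L5 kept its sign, at 0.41 to 1.22 over 20 alternatives. Whether RNA integrity had a part in these values was not tested beyond this.

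**Figure D2:**
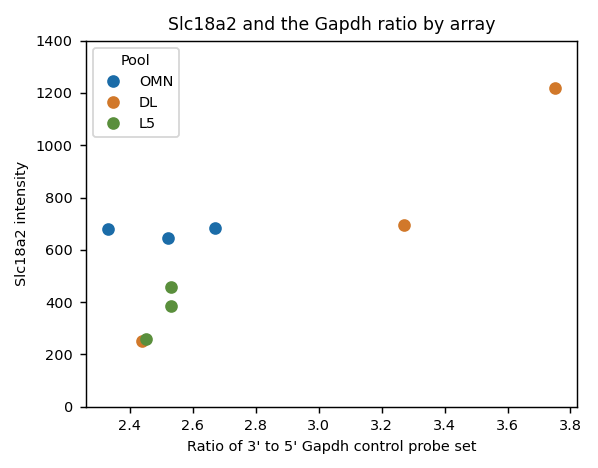
Slc18a2 intensity (y axis, linear) against the Gapdh ratio of 3' over 5' signal (x axis) for the 9 arrays, coloured by pool. The 3 DL points climb from 252.1 at a ratio of 2.44 to 1220.6 at 3.75, while the OMN points stay between 645.5 and 683.

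Slc6a2, the noradrenaline transporter NET, returns noradrenaline and dopamine to the cell and was represented by 4 probe sets that disagreed. The brightest read 59.9, 42.1 and 37.7 on the OMN arrays, against 24, 14.6 and 7.8 on the DL arrays and 19.4, 14.1 and 12.2 on the L5 arrays. On this probe set all OMN arrays were above all spinal arrays, and 4 of the 6 spinal arrays lay at or below the noise level. The means were 46.6 ± 11.8 in OMN, 15.5 ± 8.13 in DL and 15.2 ± 3.73 in L5 (SD, n = 3 each), a lower bound of 2.28-fold over DL and 2.45-fold over L5. The log2 differences were 1.01 ± 0.18 over DL and 0.99 ± 0.18 over L5, while DL minus L5 was -0.01 ± 0.18 (limma adjusted p = 0.98).

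The other 3 Slc6a2 probe sets did not show OMN above every spinal array. One read 23.7, 14.9 and 17.4 in OMN, against 11, 23.2 and 19 in DL and 25.7, 15.5 and 27.6 in L5, with L5 highest on 2 of its arrays. Another, the third by brightness, read 1.1, 29.6 and 56.4 in OMN, against 14.6, 3.7 and 2.1 in DL and 1.4, 6.9 and 14.6 in L5, which put OMN arrays 2 and 3 highest and OMN array 1 lowest of all 9. The last read 13.5, 18.2 and 7.5 in OMN, against 20.9, 1.4 and 2 in DL and 24.6, 4.9 and 30 in L5. The third probe set averaged higher in OMN, at 29.0 ± 27.7, against 6.80 ± 6.8 in DL and 7.63 ± 6.63 in L5 (SD, n = 3 each). Its log2 differences were 0.79 ± 0.48 over DL and 0.74 ± 0.48 over L5. On the second by brightness, OMN minus L5 was -0.16 ± 0.24 and OMN minus DL was 0.05 ± 0.24. On the last these were -0.24 ± 0.36 and 0.35 ± 0.36, so OMN minus L5 was below 0 on both. Complete separation of OMN from the spinal arrays was thus seen on 1 of the 4 Slc6a2 probe sets, as the plot of all probe sets of the genes with several shows.

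**Figure D3:**
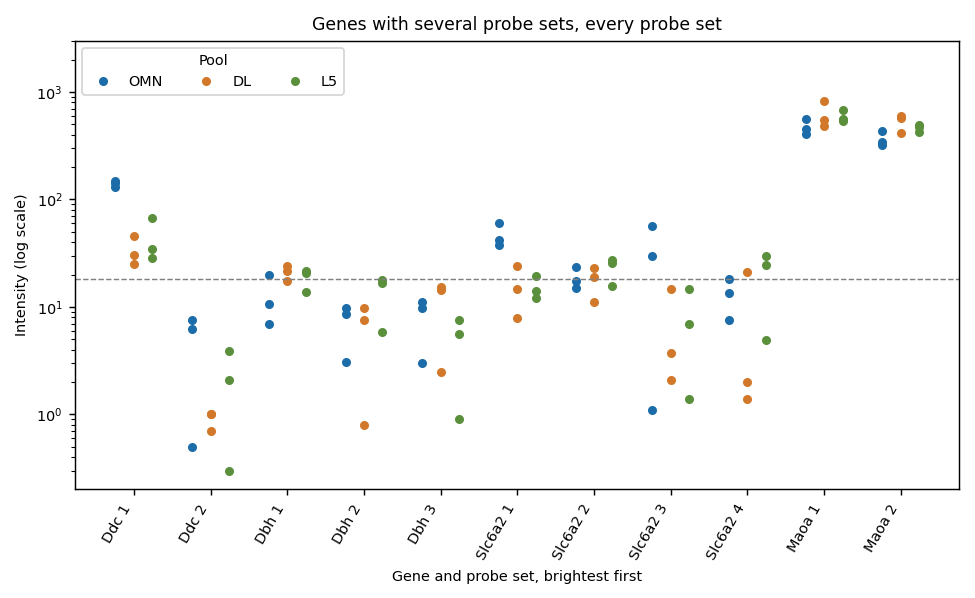
Intensity on a log scale of every probe set of Ddc, Dbh, Slc6a2 and Maoa, brightest first within a gene, for OMN, DL and L5 from left to right at each position. Points are arrays and the dashed line is the noise level of 18.3. All OMN points lie above all spinal points on the brightest Ddc and the brightest Slc6a2 probe set and on no other probe set drawn.

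Slc6a3, the dopamine transporter DAT and a marker of midbrain dopamine neurons, stayed below the noise level on all 9 arrays. It read 9.8, 7.4 and 14.6 in OMN, against 10.1, 5.9 and 3.8 in DL and 12.5, 10.6 and 8.5 in L5. The pools overlapped, and DL minus L5 was -0.24 ± 0.20 (limma adjusted p = 0.587). Drd2, the D2 receptor, which serves as an autoreceptor on dopamine neurons, read 28.5, 5.1 and 26 in OMN, against 12.9, 2.4 and 13.3 in DL and 3.1, 1.3 and 9 in L5. Only OMN arrays 1 and 3 exceeded the noise level. DL minus L5 in Drd2 was 0.31 ± 0.22 (limma adjusted p = 0.518).

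Maoa, monoamine oxidase A, oxidises noradrenaline, serotonin and dopamine and was bright in every pool on both of its probe sets. The brighter read 557.2, 457.1 and 403.2 in OMN, against 823.5, 487 and 549.5 in DL and 534.7, 564.3 and 686.8 in L5. The pools overlapped, with OMN arrays 2 and 3 the lowest of all 9. The second probe set read 320.4, 345 and 433.7 in OMN, against 573, 411.9 and 602.8 in DL and 475.9, 488.5 and 423.6 in L5. The differences of the brighter probe set were -0.33 ± 0.24 for OMN minus L5 and -0.36 ± 0.24 for OMN minus DL, and those of the second were -0.33 ± 0.22 and -0.50 ± 0.22. Both probe sets thus had the same sign in both OMN differences, and DL minus L5 of the brighter was 0.03 ± 0.24 (limma adjusted p = 0.969).

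Maob, monoamine oxidase B, is the form found mainly in glia and in serotonin neurons. It read 15.8, 8.9 and 27.7 in OMN, against 62.3, 50.3 and 38 in DL and 26.8, 21.4 and 5.7 in L5. All DL arrays were above all other arrays. DL exceeded L5 by 1.00 ± 0.32 log2 units, at least 2.25-fold, with an unadjusted p of 0.0158 and a limma adjusted p of 0.157, so the difference did not pass the test. The adjusted p lay between 0.0915 and 0.39 over 20 alternatives. OMN minus DL was -1.01 ± 0.32 and OMN minus L5 was 0.00 ± 0.32.

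Glial markers were read beside Maob. Gfap, an astrocyte filament protein, read 12.2, 19.1 and 22.7 in OMN, against 1074, 2333 and 1243 in DL and 392, 350.9 and 233.3 in L5. DL exceeded L5 in Gfap by 2.14 log2 units (limma adjusted p = 0.019), a call made in 11 of 20 alternatives. Of 10 astrocyte markers, 1 was called higher in DL than in L5 and 1, S100b, lower (the S100b call was made in 8 of 20 alternatives), or 20% of the list against 2.55% of all genes, and the list summed to 18130 to 18760 in OMN, 18520 to 21330 in DL and 22950 to 24800 in L5, with 0 markers at or below noise throughout any pool. Of 10 oligodendrocyte markers 3 (Ermn, Cldn11 and Ugt8a) were called higher in DL than in L5, or 30% against 1.28% of all genes, calls made in 6, 8 and 7 of 20 alternatives, with sums of 14610 to 16220 in OMN, 23500 to 26070 in DL and 17680 to 18550 in L5. The part of glial RNA in the Maob values was not tested.

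Between the spinal pools, then, limma called 0 of the 9 members, and 1 (Maob) had an unadjusted p under 0.05, where 464 of 18193 genes, or 2.55%, were called, 1.28% in each direction. By sign, 5 members were higher and 4 lower in DL, with a median of 0.03 log2 units, against -0.065 over all genes. For 1 member, Maob, all DL arrays were above all L5 arrays, an order that 9.67% of genes showed, and for 0 members all were below, against 13.8%. The plot of the differences sets the 3 contrasts side by side.

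**Figure D4:**
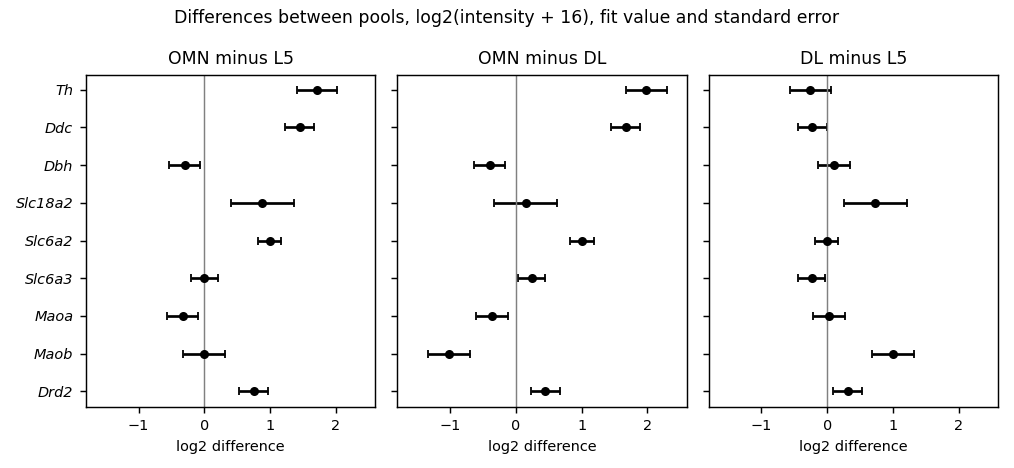
Differences of the 9 genes between pools on the log2(intensity + 16) scale, for OMN minus L5, OMN minus DL and DL minus L5. Points are the fitted values and bars their standard errors from 9 arrays. Th, Ddc and Slc6a2 lie furthest right in both OMN contrasts, and Slc18a2 and Maob lie furthest right in DL minus L5.

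Around the members, 5 further lists held genes of the biopterin cofactor that Th needs, other enzymes of amine breakdown, other amine transporters, the other dopamine receptors and the adrenergic receptors. Of 38 symbols 25 were measured and 20 exceeded the noise level on at least 3 arrays. For OMN minus L5 limma called 0 of the 25, with 3 at an unadjusted p under 0.05, where 2.17% of all genes were called, 1.22% higher and 0.945% lower. For OMN minus DL it called 0 higher and 2 lower, or 8% of the lists against 3.02% of all genes (1.65% higher and 1.37% lower). For DL minus L5 it called 1 higher and 0 lower, or 4% against 2.55%. The medians were -0.06, -0.23 and 0.22 log2 units in these 3 contrasts, with -0.015, 0.036 and -0.065 over all genes.

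The called genes were a cofactor enzyme and a receptor. Pcbd1, pterin-4a-carbinolamine dehydratase, which regenerates the biopterin cofactor and also acts as a partner of the transcription factor HNF1, read 354.9, 404.8 and 380.3 in OMN, against 1060, 1440 and 1398 in DL and 539.3, 473.9 and 579.3 in L5. Every DL array was above every other array and every OMN array below. OMN was below DL in Pcbd1, with a log2 difference of -1.72 ± 0.20 (limma adjusted p = 0.00603), and DL exceeded L5 by 1.26 ± 0.20 (adjusted p = 0.0258). The first of these was called in 19 of 20 alternatives and the second in 8, with adjusted p from 0.00334 to 0.124, and leaving out any 1 array ended the second call.

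Adra2c, the alpha-2C adrenergic receptor, read 84.6, 33.6 and 43.1 in OMN, against 198.9, 189.5 and 121.4 in DL and 161.1, 183.4 and 119.5 in L5 on the brightest of its 4 probe sets. All OMN arrays were below all spinal arrays. OMN minus DL was -1.45 ± 0.26 (limma adjusted p = 0.0338), called in 7 of 20 alternatives, and leaving out any 1 array ended that call. OMN minus L5 was -1.34 ± 0.26 (limma adjusted p = 0.0543), called in 5 of 20 alternatives.

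Other steps of the pathway did not pass the test, and the genes named here were picked for their role after their values were known. Gch1, GTP cyclohydrolase, which makes the first committed intermediate of the Th cofactor, read 73.6, 0.6 and 42.5 in OMN, against 14.6, 11.4 and 10.5 in DL and 4.2, 37.6 and 33 in L5, so that OMN spanned the other pools. Pts, the next enzyme of that route, read 496.9, 531.7 and 494 in OMN, against 700.6, 709 and 701.1 in DL and 359.7, 371.2 and 597.9 in L5. Slc18a1, the vesicular transporter of endocrine cells, ranged over the noise level in all pools, from 17 to 23.3 in OMN, 2.8 to 29.3 in DL and 12.2 to 54.9 in L5. The other dopamine receptors measured were dim, and Drd1, Drd3 and Drd4 summed to 7.3 to 32.1 in OMN, 42.5 to 91 in DL and 20.3 to 49.1 in L5. Of 7 measured partners of the synthesis enzymes (14-3-3 proteins, kinases, synucleins and a chaperone) limma called 0 in each of the 3 contrasts, with 3, 1 and 3 at an unadjusted p under 0.05 for OMN minus L5, OMN minus DL and DL minus L5.

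Identity genes of monoamine neurons were read beside Th and Ddc. Of 18 measured genes of a dopamine neuron list, 12 were above the noise level on all OMN arrays, against 4 on all DL and 4 on all L5 arrays. Of all genes, 69.4% to 70.2% exceeded it on single OMN arrays, 67% to 68.1% on DL and 69.7% to 71.5% on L5 arrays. The share of all genes above it on all arrays of a pool was not counted. For OMN minus L5 limma called 5 higher (En1, En2, Otx2, Foxa1 and Foxa2) and 1 lower (Dlk1), or 33.3% of the list against 2.17% of all genes. For OMN minus DL it called the same 5 higher and 0 lower, or 27.8% against 3.02%. The list was chosen with earlier results of these data known, so these shares are given as a description. Without OMN array 1, OMN array 3, L5 array 1 or L5 array 2, in turn, the OMN minus L5 calls numbered 3 in place of 6. The OMN minus DL calls numbered 3 without OMN array 2 and 2 without OMN array 3, in place of 5. As background, these 5 transcription factors also pattern the midbrain and floor plate and are not particular to dopamine neurons. The list summed to 1844 to 2322 in OMN, 513.4 to 1127 in DL and 2236 to 2970 in L5, where Dlk1 made up most of the L5 sum.

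En1, an engrailed homeodomain factor needed by midbrain dopamine neurons, read 217.7, 334.3 and 285.7 in OMN, against 60.6, 24.7 and 39.6 in DL and 12.6, 22.2 and 28.5 in L5. OMN exceeded L5 in En1 by 3.00 ± 0.31 log2 units (limma adjusted p = 0.00564) and DL by 2.38 ± 0.31 (adjusted p = 0.00998). Its relative En2 read 284.8, 273.6 and 253.9 in OMN, against 0.9, 11.3 and 1.4 in DL and 27.4, 14.6 and 0.4 in L5, at least 14.8-fold over DL (limma adjusted p = 0.00212) and at least 12.9-fold over L5 (adjusted p = 0.00361). For both, every OMN array lay several-fold above every spinal array. Otx2, a forebrain and midbrain homeodomain factor, read 66.2, 58.5 and 78 in OMN, while the spinal arrays stayed at or below 9.5. Foxa1 and Foxa2, forkhead factors of the floor plate, read 45.6 to 59.5 and 38.3 to 51.7 in OMN, while on the spinal arrays Foxa2 stayed at or below 10.1 and Foxa1 exceeded the noise level only on DL array 1, at 18.6. Foxa1 was at least 2.75-fold higher in OMN than in DL (limma adjusted p = 0.0406), a call made in 4 of 20 alternatives.

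Of the markers of midbrain dopamine neurons, Pitx3, Lmx1a and Slc6a3 lay at or below noise on all arrays, while Nr4a2 exceeded it on all OMN arrays. Pitx3, a homeodomain factor of midbrain dopamine neurons, averaged 1.33 ± 0.351 in OMN, 1.40 ± 0.52 in DL and 1.30 ± 0.346 in L5 (SD, n = 3 each). Lmx1a, which specifies them, stayed at or below 10.6 on all 9 arrays. Other genes of that list did not pass the test, and some of them read higher in OMN. Chrna6, a nicotinic receptor subunit of dopamine neurons, read 46.3, 33.5 and 20.2 in OMN, against 6.4, 11.3 and 9.5 in DL and 18.8, 2.6 and 17.3 in L5 (limma adjusted p = 0.267 for OMN minus L5 and 0.18 for OMN minus DL). Kcnj6, a G protein gated potassium channel subunit, read 123.4, 38.1 and 83.2 in OMN, against 0.9, 15.8 and 89.7 in DL and 3.1, 6.9 and 0.9 in L5 (adjusted p = 0.138 and 0.388). Sox6 and Aldh1a1, also uncalled, read lower in OMN than in L5, with log2 differences of -0.52 and -0.20. Against DL they read higher, by 1.24 and 0.71. Lmx1a, Chrna6, Kcnj6, Sox6 and Aldh1a1 were named after their values were known. Nr4a2, the orphan receptor Nurr1, read 81, 88.7 and 29.6 in OMN, against 16.4, 106.5 and 247.5 in DL and 12, 5.2 and 30.7 in L5, with the widest spread in DL, and no contrast was called (limma adjusted p = 0.399 for OMN minus L5 and 0.858 for OMN minus DL). Dlk1, a Notch-related ligand that the list also holds, read 273.1, 207.4 and 330.9 in OMN, against 175.9, 323.1 and 382 in DL and 1596, 1853 and 2055 in L5, and was lower in OMN than in L5 by a log2 difference of -2.71 ± 0.26 (adjusted p = 0.00375). The part of nearby dopamine neurons in the OMN values of Th and Ddc was not tested.

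Markers of other neuron types also differed between the pools. Of 4 measured inhibitory markers limma called 2 higher (Gad1 and Gad2) and 1 lower (Slc6a5) for OMN minus L5, and 0 higher and 2 lower (Slc6a5 and Slc32a1) for OMN minus DL, or 75% and 50% of the list against 2.17% and 3.02% of all genes. Their sums were 1852 to 2674 in OMN, 5017 to 5875 in DL and 1628 to 2232 in L5. Gad2, a GABA synthesis enzyme, read 1209 to 1443 in OMN, 2083 to 2725 in DL and 251 to 287.7 in L5, and its relative Gad1 read 235.7 to 571.2 in OMN, 267.3 to 635.2 in DL and 77.5 to 145.4 in L5. OMN exceeded L5 in Gad2 by 2.22 ± 0.19 log2 units (limma adjusted p = 0.00291) and in Gad1 by 1.78 ± 0.31 (adjusted p = 0.037, called in 10 of 20 alternatives).

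Slc6a5, the glycine transporter of glycinergic neurons, read 11.1 to 39.2 in OMN, 440.4 to 930.6 in DL and 456.9 to 636.9 in L5, with log2 differences of -4.23 ± 0.31 for OMN minus DL and -3.93 ± 0.31 for OMN minus L5 (limma adjusted p = 0.00114 and 0.00184). Slc32a1, which loads GABA and glycine into vesicles, read 390.2 to 620.2 in OMN, 1584 to 2227 in DL and 805.6 to 1261 in L5. Of 2 measured excitatory markers 1, or 50%, was called higher in OMN against both pools and 0 lower. Of all genes, 1.22% were called higher against L5 and 1.65% against DL. The excitatory gene called was Slc17a6, the vesicular glutamate transporter VGLUT2. It read 968.4 to 1219 in OMN, 143.5 to 284.8 in DL and 388.7 to 502 in L5. OMN exceeded DL in Slc17a6 by 2.43 ± 0.21 log2 units (limma adjusted p = 0.00224) and L5 by 1.27 ± 0.21 (adjusted p = 0.0289, called in 13 of 20 alternatives). The other measured excitatory marker, Slc17a7, lay below noise on all arrays, and Slc17a8 was not measured, so this list rests on Slc17a6. The part of these neuron types in the OMN values of Th and Ddc was not tested either.

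Markers of noradrenaline and serotonin neurons were read in the same way. Of 8 measured noradrenergic identity genes limma called 0 for OMN minus L5, with 1 at an unadjusted p under 0.05, and 1 lower for OMN minus DL, with 4 at an unadjusted p under 0.05. That is 0% and 12.5% of the list, against 2.17% and 3.02% of all genes. Phox2a, Gata3 and Insm1 were uncalled but read higher in OMN than in DL, by 0.90, 1.07 and 1.92 log2 units. Each had an unadjusted p under 0.05 in that contrast, and DL lay below the noise level on each. Insm1 was also the gene at that level for OMN minus L5, higher in OMN by 1.47 log2 units. Gata3 and Insm1 were named after their values were known. The noradrenergic sums were 164.9 to 254.6 in OMN, 227.3 to 349.7 in DL and 106.4 to 187.1 in L5. The noradrenergic gene called was Gal, the neuropeptide galanin, which read 29.6, 26.8 and 39.1 in OMN, against 159.7, 186 and 175 in DL and 45.1, 16.9 and 25.3 in L5, and was also higher in DL than in L5 by 2.12 ± 0.25 log2 units (limma adjusted p = 0.0111, called in 15 of 20 alternatives). Phox2a, a homeodomain factor of noradrenergic neurons that oculomotor neurons also need, read 12.6, 15.2 and 30 in OMN, against 4.3, 1.3 and 1.9 in DL and 13.6, 7 and 22.7 in L5. Of 8 measured serotonin markers limma called 0 for OMN minus L5, with 0 at an unadjusted p under 0.05. For OMN minus DL it called 1 lower, or 12.5% against 3.02% of all genes, with 3 at an unadjusted p under 0.05. The gene called was the receptor gene Htr1a, which read 28.8, 29.5 and 50.2 in OMN, against 140.3, 232.4 and 130.6 in DL and 67.5, 36.9 and 94 in L5 (limma adjusted p = 0.0398, called in 10 of 20 alternatives). Tph2, which makes serotonin in neurons, read 21.7, 16.7 and 1.4 in OMN, against 16.9, 11.5 and 39.3 in DL and 37.4, 35.8 and 21.5 in L5, and the serotonin transporter Slc6a4 stayed at or below 16.1 on all arrays.

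**Figure D5:**
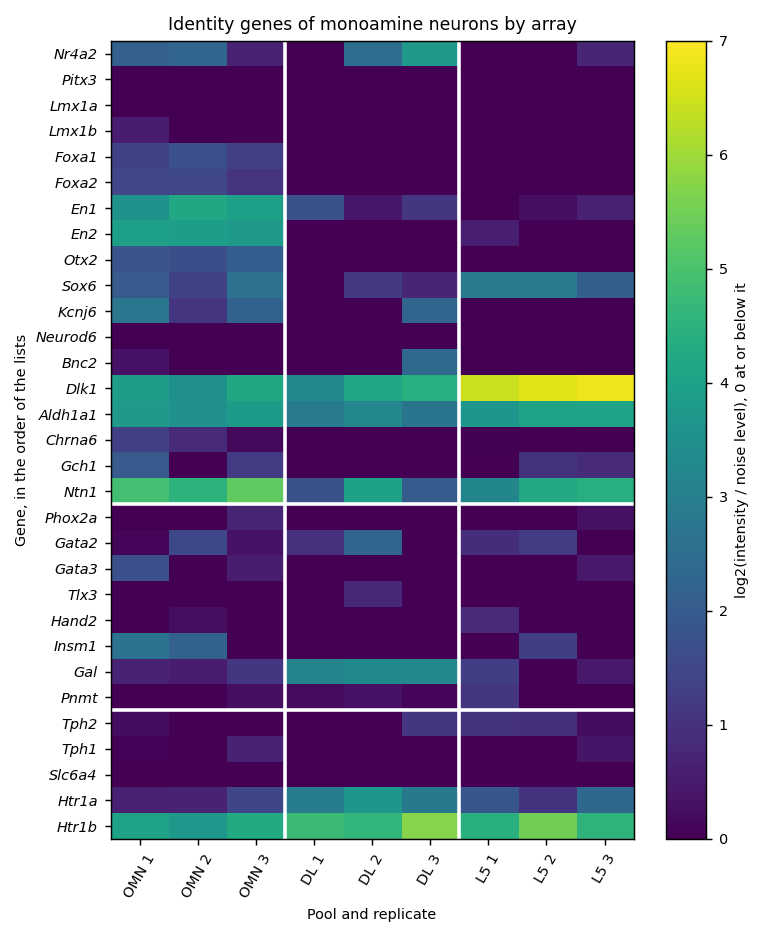
Identity genes of dopamine, noradrenaline and serotonin neurons (blocks from top to bottom) on the 9 arrays, with OMN left, DL in the middle and L5 right. Colour is log2 of the intensity over the noise level of 18.3, with values at or below it drawn as 0. The block of Foxa1, Foxa2, En1, En2 and Otx2 is lit on the OMN arrays and near 0 on most spinal arrays, while Pitx3, Lmx1a and Slc6a4 are at 0 throughout.

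Genes whose pattern over the 9 arrays was most like those of Th, Ddc and Slc6a2 are given by Pearson's r of log2(intensity + 16) among 12666 genes with settled names that exceeded noise on at least 3 arrays. The points share 3 pools, and r is given as a description. For Th these were Aebp2 (r = 0.986), Ppargc1a (0.983), Zmat4 (0.976), Irx6 (0.967) and Ptgfr (0.965), out of 82 genes with r of at least 0.9. Ppargc1a, a coactivator of mitochondrial genes, read 1907, 1873 and 1937 in OMN, against 575.2, 387.8 and 722.2 in DL and 633, 667.4 and 435.5 in L5. For Ddc they were Gulp1 (0.973), Trpc7 (0.968), Foxa2 (0.965), Olfm4 (0.962) and Bcl11a (0.962), out of 51. For the brightest Slc6a2 probe set they were Adamtsl5 (0.977), Usp29 (0.968), St6galnac5 (0.958), Gucy1b1 (0.957) and Eno4 (0.957), out of 41.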

How the data were processed

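The authors deposited 1 table of intensity values on a linear scale, 1 per probe set and array, each array scaled to a trimmed mean of 250 (2% removed at each end, from the values). RNA was amplified with the WT-Ovation Pico kit and biotin labelled, per the labels' protocols, while for the software that made the values the sources used here name nothing. Per the labels, each animal gave all 3 pools.

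From the deposited values, log2(intensity + 16) was computed and all 9 arrays were fitted with limma 3.58.1 in R 4.3.3, with terms for pool and for replicate number (the block). Benjamini-Hochberg adjustment ran over 18193 genes per contrast, and an adjusted p under 0.05 is a call. Control probe sets (64) were left out, and 34945 of the rest carried 1 gene, 932 several and 9160 none in the platform annotation. A gene with several probe sets is represented by the brightest on average, and 9010 genes had over 1. The scaled values keep no total RNA amount, and the number of arrays limits the precision.

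The noise level of 18.3 was set after the values were seen. Where a pool averaged at or below it, a fold is a lower bound of geometric means with values under 18.3 raised to it. The members, and the lists with 113 of 135 symbols matched, were chosen with earlier results of these data known. The shares of a list called are therefore a description. Named were all members, list genes called in any contrast (at most 6 per list by adjusted p), fixed defining markers and the 5 genes most alike to Th, Ddc and Slc6a2. Genes said to be named after their values were known fall outside this rule. The fit was also run on simulated data with 200 changed genes, and the outcome is not given here.

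Replicates are separate animals per the protocol. No label says that equal numbers mark 1 animal. Deviations of same-numbered arrays from their pool means correlated at -0.0713 to 0.0586, none over 0.1, so the numbers are not shown to pair the arrays.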

Additional observations from a re-analysis of the deposited data

How the results depend on the processing

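Over 20 alternatives the log2 differences of Th were 0.93 to 2.46 for OMN minus L5 and 1.02 to 3.13 for OMN minus DL. Those of Ddc were 0.82 to 1.76 and 0.98 to 2.07, and those of Slc6a2 0.33 to 1.55 and 0.48 to 1.63. The sign was the same in all 20, which is only a description because these genes were chosen for brighter OMN arrays. For Slc6a2 only the mean over probe sets used the dimmer ones. On these, OMN minus L5 was -0.16 on the second by brightness, 0.74 on the third and -0.24 on the last. limma called 0 members for DL minus L5 under every alternative. With a noise level of 50 the bound for Th was 1.74-fold over DL and over L5, and no bound was left for Slc6a2 or Maob. The Gapdh covariate and the omission of DL arrays 1 and 3 were chosen after seeing the data, as were all alternatives for identity and marker genes. That omission leaves 1 DL array, so its counts of calls are not listed on their own below. The cause of the changes below was not tested.

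Of genes called for OMN minus L5 (394), there were 103 with a pseudocount of 1, 602 with 64, 946 with trend and robust variances, and 83 (without L5 array 2) to 375 leaving out 1 array. For OMN minus DL (550) there were 200 with a pseudocount of 1, 880 with trend, 279 with the Gapdh covariate, 128 without DL arrays 1 and 3, and 186 to 370 leaving out 1 array. For DL minus L5 (464) there were 61 with a pseudocount of 1, 814 with 64, 1153 with trend, 89 with the Gapdh covariate, and 55 (without L5 array 2) to 259 leaving out 1 array.

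Without the replicate block, which no label shows to pair the arrays, 579 genes were called for OMN minus L5, 716 for OMN minus DL and 806 for DL minus L5.

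Of the 25 pathway genes, OMN minus L5 (0) gave 2 with a pseudocount of 64 or trend, 1 with quantile scaling, median centring, the filter or no replicate block, and 0 to 0 leaving out 1 array. OMN minus DL (2) gave 1 with a pseudocount of 1, mean probe sets or the Gapdh covariate, and 1 to 1 leaving out 1 array. DL minus L5 (1) gave 0 with a pseudocount of 1 or the Gapdh covariate, 3 with a pseudocount of 64 or no replicate block, and 0 to 0 leaving out 1 array.

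Dopamine identity genes called, 6 for OMN minus L5 and 5 for OMN minus DL, were 3 to 7 and 1 to 5 over 20 alternatives. Without OMN array 3 they were 3 and 2. En1 over L5 was called in all 20 alternatives, Foxa1 over DL in 4.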
